A study of Mus musculus with 20 samples.

Results

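Genes that make, use or break down phosphoethanolamine and phosphocholine were followed in the livers of wild-type (WT) and *Crem* knock-out (KO) mice. The 8 genes are *Etnppl*, *Etnk1*, *Etnk2*, *Chka*, *Chkb*, *Pcyt1a*, *Pcyt2* and *Pemt*, and each was to be read from a probe set assigned to that gene alone. This held for 6 of the 8, among 19661 genes measured in this way. The probe set that lists *Chkb* is shared with *Gm44502*, so *Chkb* was not analysed here, and neither was *Etnk2*, which the probe annotation used here does not name. The group was selected on the KO minus WT difference of *Etnppl* in these same arrays, in which it had been seen to be lower in KO liver. The difference of *Etnppl* between the genotypes is therefore given as a description, without a test.

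Whole liver RNA of 20 mice was hybridized, 1 mouse to an array. All mice were 8 weeks old, untreated and fed freely, on a mixed background given as 129Pas x C57Bl/J. They carried either the WT or the Crem-/- genotype, and the labels name no allele beyond these and no sex. CREM is a transcription factor of the cAMP response, and its loss here is not restricted to the liver by anything in the labels. Livers were taken at the onset of light (0 h) from 5 WT and 5 KO mice and at its end (12 h) from 5 WT and 5 KO mice, all of them different animals. The values are log2 expression after RMA, a summary of probe brightness, so levels of different genes are not compared. Batch labels 1, 2, 3 and 4 cover the 0 h arrays, with both genotypes in each, while every 12 h array has batch label 5.

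Phosphatidylethanolamine and phosphatidylcholine are the main phospholipids of the membranes and lipoproteins that the liver makes. In the Kennedy pathway, ethanolamine or choline is first phosphorylated by a kinase (ETNK1 for ethanolamine, CHKA for choline and also for ethanolamine), then joined to CTP by a cytidylyl transferase (PCYT2 or PCYT1A) and finally transferred to diacylglycerol. The liver has another source of phosphatidylcholine, the methylation of phosphatidylethanolamine by PEMT. ETNPPL works in the opposite direction, as it breaks phosphoethanolamine down to ammonia, phosphate and acetaldehyde before a cytidylyl transferase can use it.

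The tissue and the times were checked first. All 9 hepatocyte markers measured (*Alb*, *Apoa1*, *Apob*, *Ttr*, *Cps1*, *Cyp2e1*, *Fgb*, *Tat* and *Hpx*) lay above the 99.7 percentile of brightness. Of 9 clock genes measured, 8 differed between 12 h and 0 h in WT and 9 in KO livers (limma, adjusted p under 0.05). The *Crem* probe set ranged from 8.11 to 8.55 in WT livers and from 7.43 to 8.17 in KO livers at 0 h. At 12 h its range was 7.90 to 8.02 in WT and 7.39 to 7.83 in KO livers. The genotypes overlapped at 0 h through the liver labelled KO mouse 1, at 8.17, and did not overlap at 12 h. Where the probes lie relative to the disrupted part of the gene was not examined. No 2 arrays held identical values, and array medians lay between 7.07 and 7.24, the highest being that of WT mouse 80.

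*Etnppl* had the widest spread within groups of the 6 genes, with a standard deviation of 0.26 on the log2 scale, larger than that of 92.5% of all probe sets. In WT livers at 0 h its log2 level was 10.83 in mouse 78, 11.10 in mouse 146, 11.26 in mouse 80, 11.35 in mouse 145 and 11.38 in mouse 147. In KO livers at 0 h it was 10.13 in mouse 1, 10.38 in mouse 144, 10.80 in mouse 76, 10.94 in mouse 77 and 10.97 in mouse 143. At 0 h the groups thus overlapped only through WT mouse 78, which lay below the KO mice 77 and 143.

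At 12 h the *Etnppl* level was 11.43 in WT mouse 170, 11.47 in mouse 169, 11.57 in mouse 167, 11.59 in mouse 111 and 11.75 in mouse 168. In KO livers at 12 h it was 10.50 in mouse 110, 11.06 in mouse 55, 11.08 in mouse 109, 11.10 in mouse 18 and 11.15 in mouse 166. Here every KO mouse lay below every WT mouse. At 12 h 1 of the 6 genes had no overlap between the genotypes, as did 2.42% of all probe sets (1.18% with KO higher and 1.24% with KO lower). At 0 h 0 of 6 genes did, against 0.728% of all probe sets (0.343% higher and 0.385% lower). The 1 gene at 12 h is *Etnppl*, on which the group was chosen, and the other genes overlapped. These counts are therefore no test of the group.

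The mean *Etnppl* level fell in the order WT at 12 h (11.56 ± 0.12, SD, n = 5), WT at 0 h (11.18 ± 0.22), KO at 12 h (10.98 ± 0.27) and KO at 0 h (10.64 ± 0.37). Of neighbours in this order, the WT groups of the 2 times did not overlap, whereas WT at 0 h overlapped KO at 12 h and the KO groups of the 2 times overlapped. The KO level was lower by 0.54 on the log2 scale at 0 h (standard error 0.15) and by 0.59 at 12 h (standard error 0.15), which is 1.45-fold and 1.5-fold. Over both times the log2 difference was -0.56 (standard error 0.11, 1.48-fold). Without the liver labelled KO mouse 1 the difference at 0 h was -0.41. These are the values that led to the choice of the genes.

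Within each of the 5 batches every KO liver lay below every WT liver in *Etnppl*. These are again the values that led to the choice of the gene, so this is no separate support. How many other probe sets separate this way in every batch was not examined. The log2 difference was -0.14 between the 2 KO livers and the WT liver of batch 1. It was -0.70 in batch 2, with 1 mouse of each genotype. Batch 3, with 1 KO and 2 WT livers, had the widest gap, -0.93. The single pair of batch 4 differed by -0.58, and the 12 h livers of batch 5, with 5 mice of each genotype, by -0.59. WT mouse 78, the lowest WT liver, shares batch 2 with KO mouse 1, the lowest liver of all. The means of the 0 h batches differed by up to 0.54 in WT and 0.83 in KO livers. With 1 or 2 mice of a genotype in a batch, this cannot be told apart from differences between mice.

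**Figure D1:**
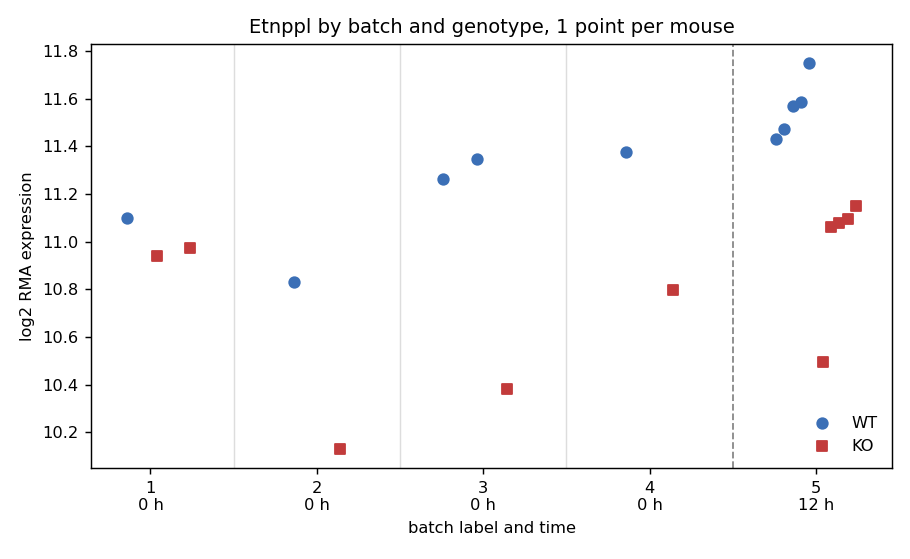
The horizontal axis gives the batch label with its time, and the vertical axis, which starts above 0, the log2 RMA expression of *Etnppl* in 20 livers. Circles are WT and squares KO mice, 1 symbol per mouse, and in each of the 5 batches the squares lie below the circles. *Etnppl* was chosen on this difference between the genotypes.

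In whole liver, fewer cells of a type cannot be told apart from less RNA per cell. Markers of hepatocytes had a median KO minus WT log2 difference of -0.01 over both times, and the mean level of the 9 markers ranged over mice from 13.73 to 13.87 at 0 h (WT) and 13.76 to 13.82 (KO), and from 13.73 to 13.81 at 12 h (WT) and 13.73 to 13.80 (KO). Markers of sinusoidal endothelium, 6 of 6 measured, had a median of -0.14, of the same sign as *Etnppl*, their mean level ranging from 9.73 to 9.90 in WT and from 9.62 to 9.87 in KO livers at 0 h and from 9.73 to 10.20 and from 9.67 to 9.95 at 12 h. The 6 markers of stellate cells had a median of -0.08 over both times and of -0.16 at 12 h. Their mean level ranged from 8.93 to 9.11 in WT and 9.02 to 9.07 in KO livers at 0 h, and from 9.07 to 9.26 in WT and 8.85 to 9.08 in KO livers at 12 h. Over both times the median was -0.01 for markers of Kupffer cells, -0.01 for cholangiocytes and -0.05 for adipocytes. It was 0.03 for pancreatic acinar cells and 0.08 for neutrophils. Limma called 0 markers of any of these lists for genotype. The part of the endothelial and stellate markers in the *Etnppl* difference was not tested.

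The stretch around the first listed RefSeq start site of *Etnppl* is shown because this gene led to the choice of the group and because CREM is known to bind cAMP response elements (CRE). It runs from 250 bases before to 50 bases after the start, on the plus strand of chr3:130617198-130617497 in GRCm38.p6. Searches covered both strands, and matches would stand in capitals. One motif was the full CRE, TGACGTCA, which reads the same on both strands. Another was the short CRE, TGACG, which is contained in the full one and reads CGTCA on the opposite strand. The last was the E-box of clock factors, CACGTG, which also reads the same on both strands.

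Etnppl: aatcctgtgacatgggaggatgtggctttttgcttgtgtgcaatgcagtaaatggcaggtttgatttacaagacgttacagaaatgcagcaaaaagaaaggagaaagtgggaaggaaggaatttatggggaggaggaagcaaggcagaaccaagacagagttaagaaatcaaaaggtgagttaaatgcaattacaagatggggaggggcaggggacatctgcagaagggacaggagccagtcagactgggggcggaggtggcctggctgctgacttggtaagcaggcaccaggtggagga

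None of these 3 motifs occurs in this window or in that of the second *Etnppl* start site. Of all 32851 windows of this length in the RefSeq promoter table, 1.79% hold the full CRE, 20.8% the short CRE and 7.15% the E-box. A missing match says only that these letters are not in the window.

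Between 0 h and 12 h the *Etnppl* difference missed the threshold in both genotypes. The 12 h minus 0 h log2 difference was 0.38 in WT (standard error 0.15, limma adjusted p = 0.066), where every 12 h liver lay above every 0 h liver, and 0.33 in KO livers (standard error 0.15, limma adjusted p = 0.13). With each array centred on its median the WT difference became 0.47 and passed (limma adjusted p = 0.024). Without KO mouse 110 the KO difference became 0.45 and passed (limma adjusted p = 0.033). The genotype difference at 12 h minus that at 0 h was -0.05 (95% confidence interval -0.49 to 0.40, limma adjusted p = 0.98).

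Over the 6 genes, 4 changed with time in WT livers, 3 higher and 1 lower at 12 h, and in KO livers 4 did so, again 3 higher and 1 lower. Among all probe sets 27.8% were called for time in WT (13.5% higher and 14.3% lower) and 20.3% in KO livers (10.6% higher and 9.69% lower). All 6 genes lie above the median brightness. With only probe sets above it fitted and adjusted, 46.2% were called in WT and 39.2% in KO livers. In that run 5 of the 6 genes were called in WT and 4 in KO livers. Shares of bright probe sets, here and below, come from that separate run, whereas shares of the gene lists come from the main fit. With each array centred on its median, 5294 calls were higher and 1995 lower in WT livers, instead of 3462 and 3682. In KO livers 3676 were higher and 1603 lower, instead of 2722 and 2489. In the main fit the genes that changed were *Chka*, *Pcyt1a*, *Pcyt2* and *Pemt* in both genotypes.

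*Chka*, the choline kinase at the entry of the choline branch, fell steeply from 0 h to 12 h. In WT livers its log2 level was 9.48, 9.50, 9.74, 9.78 and 9.96 at 0 h and 8.07, 8.08, 8.09, 8.34 and 8.67 at 12 h. In KO livers it was 9.66, 9.93, 9.97, 10.10 and 10.18 at 0 h and 7.70, 7.83, 7.89, 8.10 and 8.51 at 12 h. The times did not overlap in either genotype, as was the case for 17.5% of all probe sets in WT (9.21% higher and 8.33% lower at 12 h) and 16.4% in KO livers (8.87% and 7.49%). Of the 6 genes 5 did not overlap between the times in WT (4 higher and 1 lower) and 4 in KO livers (3 higher and 1 lower).

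The *Chka* log2 difference between 12 h and 0 h was -1.44 in WT (standard error 0.14, 2.72-fold lower, limma adjusted p = 2.87e-07) and -1.96 in KO livers (standard error 0.14, 3.90-fold lower, limma adjusted p = 4.38e-09). The change in KO minus that in WT livers was -0.52 (95% confidence interval -0.94 to -0.10). It missed the threshold over all probe sets (limma adjusted p = 0.64, unadjusted p = 0.018). The highest KO liver at 12 h, mouse 110, was also the lowest in *Etnppl* there, while WT mouse 168 was the highest WT liver at 12 h in both genes. Over the 20 mice the deviations of *Chka* and *Etnppl* from their group means had a correlation of -0.10.

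The genotypes overlapped in *Chka* at both times. The mean was 9.69 ± 0.20 in WT and 9.97 ± 0.20 in KO livers at 0 h, and 8.25 ± 0.26 in WT and 8.01 ± 0.32 in KO livers at 12 h (SD, n = 5 each).

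*Pcyt1a*, which encodes the rate-limiting cytidylyl transferase of the choline branch, went the other way. In WT livers its log2 level was 9.44, 9.47, 9.50, 9.53 and 9.55 at 0 h and 10.05, 10.11, 10.15, 10.15 and 10.16 at 12 h. In KO livers it was 9.37, 9.38, 9.42, 9.45 and 9.47 at 0 h and 9.89, 9.93, 9.98, 10.01 and 10.07 at 12 h. The times were far apart in both genotypes, and the genotypes overlapped at 12 h only through KO mouse 166 and WT mouse 167.

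*Pcyt1a* rose by 0.62 on the log2 scale in WT (standard error 0.06, 1.54-fold, limma adjusted p = 6.66e-08) and by 0.56 in KO livers (standard error 0.06, 1.47-fold, limma adjusted p = 3.34e-07). It was the steadiest of the 6 genes, with a standard deviation within groups of 0.05, smaller than that of all but 0.304% of probe sets. Its mean was slightly lower in KO than in WT livers in each of the 5 batches, by 0.11 on the log2 scale over both times (standard error 0.04) and from -0.15 to -0.03 within batches. This belongs to the contrast that chose the group and is given as a description.

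The choline genes *Chka* and *Pcyt1a* thus changed in opposite directions, and the windows around a RefSeq start site of each are shown with the motifs named above in capitals. That of *Chka* lies at chr19:3851523-3851822 and that of *Pcyt1a*, the second of its 3 listed start sites, at chr16:32430770-32431069, both on the plus strand of GRCm38.p6.

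Chka: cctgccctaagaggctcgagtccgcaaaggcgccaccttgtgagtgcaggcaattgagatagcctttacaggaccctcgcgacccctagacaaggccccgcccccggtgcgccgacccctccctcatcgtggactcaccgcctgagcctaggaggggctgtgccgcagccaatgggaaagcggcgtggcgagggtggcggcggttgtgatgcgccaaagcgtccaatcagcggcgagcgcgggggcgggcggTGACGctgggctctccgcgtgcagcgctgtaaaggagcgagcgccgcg

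Pcyt1a: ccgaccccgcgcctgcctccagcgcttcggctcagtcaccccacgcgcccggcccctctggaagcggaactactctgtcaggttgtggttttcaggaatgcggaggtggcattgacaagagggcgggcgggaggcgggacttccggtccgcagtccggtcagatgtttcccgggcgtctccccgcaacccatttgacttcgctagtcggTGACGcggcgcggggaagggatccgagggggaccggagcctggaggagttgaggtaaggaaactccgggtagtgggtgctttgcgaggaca

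Each holds 1 short CRE, which begins 2 bases after the start in *Chka* and 41 bases before it in *Pcyt1a*, and neither holds a full CRE or an E-box. The other 2 *Pcyt1a* windows and both of *Pemt* hold none of the motifs. The *Etnk1* window holds 3 short CREs, and those of *Etnk2* and *Chkb*, whose levels were not analysed, hold 1 each. A match of 5 letters is a description and not a binding site.

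The ethanolamine cytidylyl transferase *Pcyt2*, which sets the pace of the ethanolamine branch, rose modestly. Its log2 level ranged from 11.16 to 11.43 in WT and from 11.25 to 11.38 in KO livers at 0 h, and from 11.47 to 11.62 in WT and from 11.44 to 11.64 in KO livers at 12 h. All 12 h livers lay above all 0 h livers of their genotype. The log2 difference was 0.26 in WT (standard error 0.07, 1.19-fold, limma adjusted p = 0.0058) and 0.25 in KO livers (standard error 0.07, 1.19-fold, limma adjusted p = 0.0085).

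*Pemt*, the methyltransferase that turns phosphatidylethanolamine into phosphatidylcholine, also rose in both genotypes. Its log2 level ranged from 12.314 to 12.68 in WT and from 12.25 to 12.55 in KO livers at 0 h, and from 12.74 to 12.99 in WT and from 12.67 to 12.80 in KO livers at 12 h. Again the times did not overlap within a genotype. The log2 difference was 0.33 in WT (standard error 0.08, 1.26-fold, limma adjusted p = 0.0028) and 0.35 in KO livers (standard error 0.08, 1.27-fold, limma adjusted p = 0.0023).

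The ethanolamine kinase *Etnk1* showed no call for time. Its log2 level ranged from 9.69 to 10.08 in WT and from 9.91 to 10.12 in KO livers at 0 h, and from 9.81 to 10.03 in WT and from 10.02 to 10.17 in KO livers at 12 h, so that the groups overlapped at each time and in each genotype. The 12 h minus 0 h log2 difference was -0.02 in WT (95% confidence interval -0.17 to 0.14) and 0.07 in KO livers (-0.08 to 0.23).

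**Figure D2:**
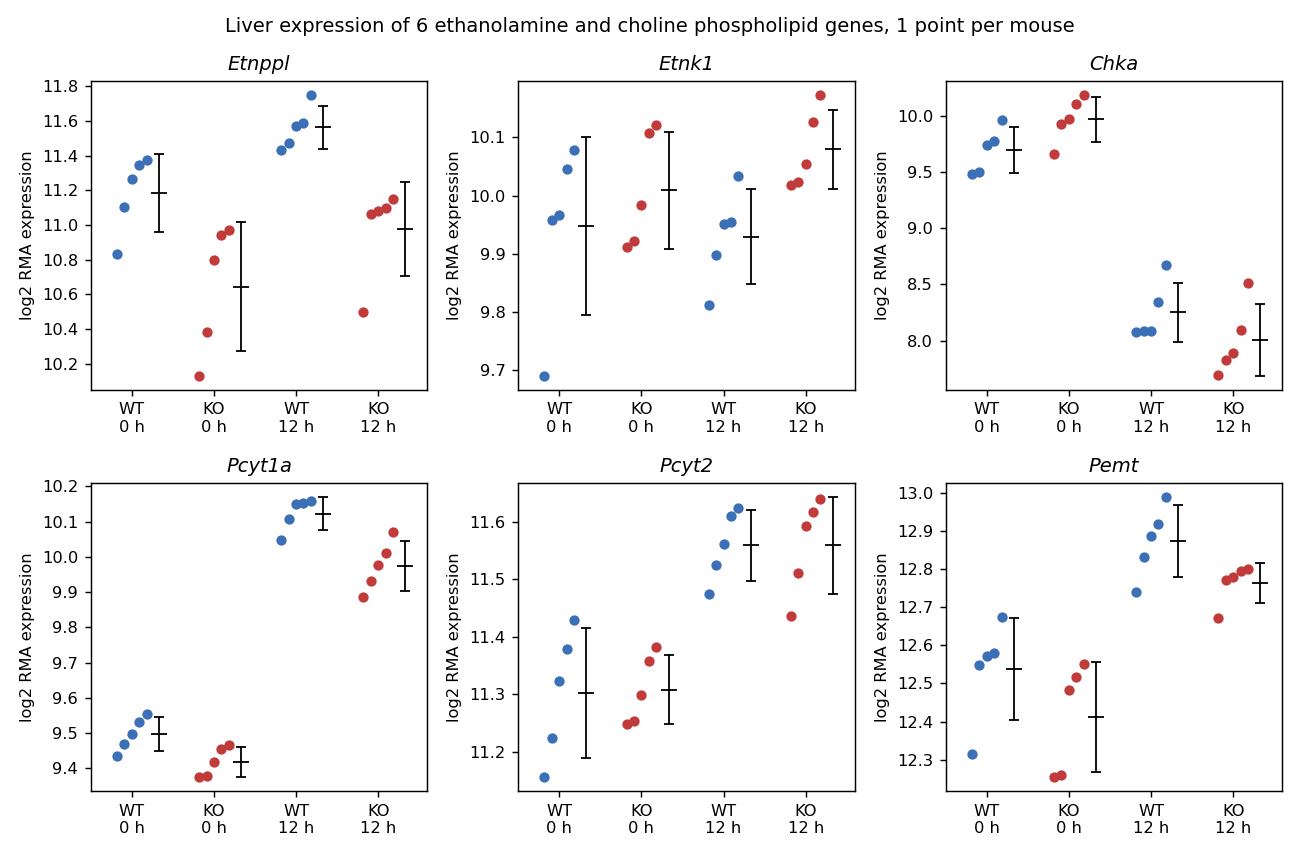
Each panel is a gene, the horizontal axis gives the 4 groups and the vertical axis log2 RMA expression, which starts above 0 and differs between panels. A point is a liver (WT in blue, KO in red), and the black bars show group means with their SD (n = 5). Mean *Etnppl* is lower in KO livers at both times, *Chka* is lower and *Pcyt1a*, *Pcyt2* and *Pemt* are higher at 12 h than at 0 h in both genotypes.

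Because all 12 h arrays have 1 batch label, a fixed batch term could not be used for time. With batch as a random block (correlation 0.0286) the same number of members, 4 of 6, was called in each genotype. The time difference of *Chka* exceeded the largest difference between the means of 0 h batches, which was 0.47 in WT and 0.53 in KO livers, and so did that of *Pcyt1a*, with 0.06 and 0.09. For *Pcyt2* the largest difference between 0 h batches in WT livers was 0.27 and for *Pemt* 0.36, which is as large as their time differences of 0.26 and 0.33. In KO livers these spreads were 0.13 and 0.29, under the time differences of 0.25 and 0.35. Neither these spreads nor the random block measure an offset of batch 5, which holds every 12 h array. Time and batch cannot be told apart in this design for any of these genes.

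**Figure D3:**
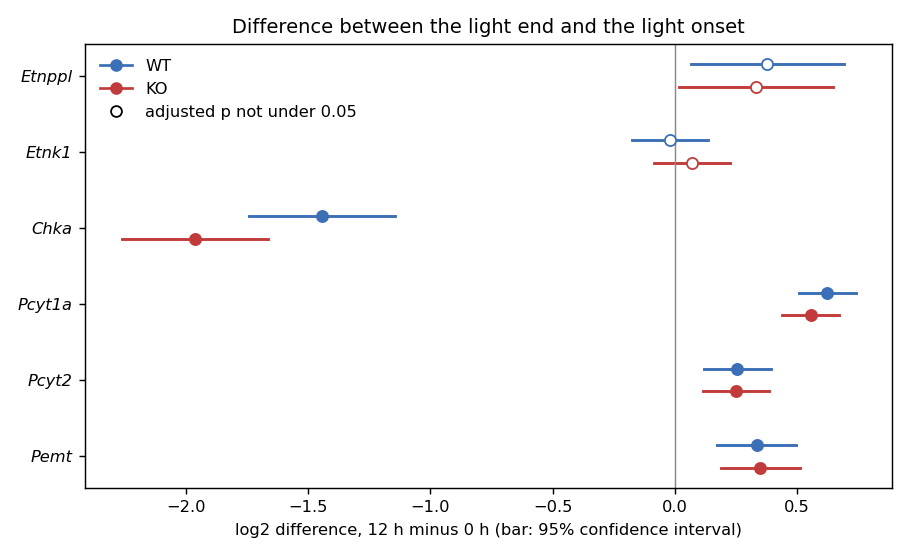
Log2 difference between 12 h and 0 h (horizontal axis) of the 6 genes in WT (blue) and KO (red) livers, with 95% confidence intervals as bars. Filled circles have a limma adjusted p under 0.05, and *Chka* is the only one of them below 0, at -1.44 in WT and -1.96 in KO livers.

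For genotype, limma called 0 of the 6 genes over both times, where it called 0.0117% of all probe sets (0.00389% higher and 0.00779% lower). It called 0 of 6 at 12 h, where it called 0.0234% of all (0.0156% higher and 0.00779% lower), and 0 of 6 at 0 h, where it called 0. These shares stand beside the contrast that chose the group, and nothing is read from them. An unadjusted p under 0.05 was reached by 2537 of 25689 probe sets and 3 of the 6 genes over both times. At 0 h it was reached by 1148 and 1, and at 12 h by 3216 and 2. *Etnppl*, which led to the choice of the group, is among these genes each time and is the 1 at 0 h. These counts are therefore no test of the group. The KO minus WT log2 difference over both times was 0.11 for *Etnk1* (standard error 0.05), 0.01 for *Chka* (0.10), 0.0031 for *Pcyt2* (0.05) and -0.12 for *Pemt* (0.05). Within batches these differences took both signs for *Etnk1*, *Chka* and *Pcyt2*. That of *Pemt* was negative in 4 of 5 batches and 0.0028 in batch 2, with 1 mouse of each genotype. Those of *Etnppl* and *Pcyt1a* were negative in all 5 batches. For the difference between the times' genotype effects 0 of 6 genes and 0 of 25689 probe sets were called, with 1 of 6 (*Chka*) and 1757 of 25689 at an unadjusted p under 0.05.

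How the genes moved together from mouse to mouse was described by correlating their deviations from the group means over the 20 mice, which share arrays and batches. Among the 15 pairs the coefficient ranged from -0.32 (*Etnppl* and *Pemt*) to 0.49 (*Pcyt2* and *Pemt*). Those of *Etnppl* with the other 5 genes lay between -0.32 and 0.21. Over all 20776 other single-gene probe sets, the 5 most like *Etnppl* by this measure were *Fam205c* (0.81), *Mul1* (0.77), *Nr3c2* (0.77), *Podn* (0.74) and *Clec2d* (0.74). The most like *Pemt* was *Nek9* (0.92), *Pcyt2* *Slc66a2* (0.88), *Pcyt1a* *Hmcn1* (0.88), *Etnk1* *Usp53* (0.87) and *Chka* *Caprin1* (0.83). These are the highest of many coefficients over 20 mice. How high they would be among unrelated genes was not examined. *Fam205c* is dim, with group means from 5.50 to 5.68, below every array median.

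Of 76 further genes of these pathways, 72 were measured. In WT livers 28 of them rose and 9 fell from 0 h to 12 h, and in KO livers 23 rose and 11 fell. The share called in WT livers, 51.4%, stands beside 27.8% of all probe sets and 46.2% of those above the median brightness, and the share in KO livers, 47.2%, beside 20.3% and 39.2%. When only probe sets above the median brightness were tested, as for the 46.2%, 41 of the 60 pathway genes among them were called in WT livers. The median log2 difference of the 72 genes was 0.17 in WT and 0.05 in KO livers, against -0.03 and -0.02 over all probe sets. Calls were shared by 30 genes, each with the same direction in both genotypes. The difference between the changes of the genotypes was called for 0 of 72 genes, with 4 of 72 at an unadjusted p under 0.05.

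The diacylglycerol that the last step needs comes from lipins, the phosphatidate phosphatases. *Lpin1* showed the steepest rise of the 72 genes, by 3.09 on the log2 scale in WT (standard error 0.20, 8.51-fold, limma adjusted p = 7.64e-10) and by 2.53 in KO livers (limma adjusted p = 1.32e-08). *Lpin2* rose by 1.34 in WT and 1.04 in KO livers. *Lpin3* rose by 0.25 in WT livers, and its difference of 0.11 in KO livers missed the threshold (limma adjusted p = 0.33).

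The final transferases were split. *Chpt1*, which makes phosphatidylcholine, rose by 0.40 in WT and 0.30 in KO livers on the log2 scale. *Selenoi*, the ethanolamine phosphotransferase, fell by 0.33 in WT and by 0.31 in KO livers. *Cept1*, which uses both CDP-choline and CDP-ethanolamine, fell by 0.23 and by 0.27. The second choline cytidylyl transferase *Pcyt1b* was not called in either genotype.

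All 3 genes of the phosphatidylserine route rose in both genotypes. Among bright probe sets 46.2% were called for time in WT and 39.2% in KO livers, and a list of 3 genes is small. *Pisd*, whose enzyme decarboxylates phosphatidylserine to phosphatidylethanolamine in mitochondria, rose by 0.45 in WT and 0.49 in KO livers on the log2 scale. The serine-exchange enzymes *Ptdss2* and *Ptdss1* rose by 0.39 and 0.23 in WT livers and by 0.37 and 0.36 in KO livers.

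A mixed list of 10 genes held phosphatases, enzymes of sphingosine phosphate and relatives of *Etnppl*. Of these 1 was higher and 3 lower in WT livers, and 1 higher and 4 lower in KO livers. The shares called, 40% and 50%, stand beside 27.8% and 20.3% of all probe sets and 46.2% and 39.2% of bright ones. The phosphatase gene *Phospho1* fell by 0.71 in WT and by 0.58 in KO livers on the log2 scale. *Sgpl1*, whose lyase releases phosphoethanolamine from sphingosine phosphate, fell by 0.28 in both. The phosphatase gene *Phospho2* fell by 0.22 in WT livers, and its difference of -0.10 in KO livers missed the threshold (limma adjusted p = 0.41). *Sgpp1*, a phosphatase gene of sphingosine phosphate, rose by 0.24 in WT and 0.18 in KO livers. Among the relatives of *Etnppl*, *Phykpl* had differences of -0.0022 in WT and -0.07 in KO livers, neither called, while *Agxt2* was at 0.0046 in WT livers, not called, and fell by 0.28 in KO livers.

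Among 14 measured genes of choline transport and oxidation 5 rose and 0 fell in WT, and 4 rose and 0 fell in KO livers. The shares called, 35.7% and 28.6%, lie above those of all probe sets. Bright probe sets tested alone had 46.2% and 39.2%, but this list also holds genes below the median brightness. The genes that rose include the choline dehydrogenase *Chdh* (0.58 in WT and 0.54 in KO livers), the choline transporter-like genes *Slc44a2* (0.51 and 0.48) and *Slc44a3* (0.45 in WT and, not called, 0.20 in KO livers), and *Sardh* (0.41 and 0.35). The betaine methyltransferase *Bhmt* had a difference of 0.02 in WT livers (limma adjusted p = 0.96) and of -0.47 in KO livers (limma adjusted p = 0.18), where its SD at 12 h was 0.80.

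Of 9 measured genes listed under methyl group supply, 6 rose and 2 fell in WT and 4 rose and 2 fell in KO livers. This supply includes the S-adenosylmethionine that PEMT consumes. The list also holds *Gamt*, *Gnmt* and *Nnmt*, whose enzymes use this methyl donor, so its counts do not measure supply. The shares called, 88.9% and 66.7%, lie above those of all probe sets and of bright ones tested alone. *Gamt* rose by 0.34 on the log2 scale in WT livers. Its difference of 0.22 in KO livers missed the threshold (limma adjusted p = 0.069). *Mat1a*, the liver's S-adenosylmethionine synthetase, rose by 0.43 in WT and 0.28 in KO livers on the log2 scale. *Ahcyl1* rose by 0.52 and 0.43, and *Mtrr* by 0.48 and 0.44. *Gnmt*, which methylates glycine and so competes for the same methyl donor, fell by 0.22 and by 0.26, and *Ahcyl2* fell by 0.41 and by 0.60. Whether *Ahcyl1* and *Ahcyl2* take part in methyl group supply was not examined.

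Of 21 genes of remodelling and breakdown 5 rose and 2 fell in WT, and 4 rose and 3 fell in KO livers. The share called was 33.3% in each genotype, above that of all probe sets. Bright probe sets tested alone had 46.2% in WT and 39.2% in KO livers, but this list also holds genes below the median brightness. *Gpcpd1*, whose enzyme splits glycerophosphocholine, rose by 2.08 in WT (standard error 0.12, 4.22-fold, limma adjusted p = 1.41e-10) and by 1.59 in KO livers (limma adjusted p = 8.57e-09). The difference between these changes was -0.48 and missed the threshold (unadjusted p = 0.011). *Pnpla7* rose by 0.56 and 0.63, and *Pla2g12b* fell by 0.43 and by 0.56.

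Of 8 genes that transfer, export or use phosphatidylcholine 4 rose and 0 fell in each genotype. The share called, 50% in each, stands beside 46.2% of bright probe sets in WT and 39.2% in KO livers. Those that rose include *Stard7* (0.63 in WT and 0.57 in KO livers) and *Stard10* (0.29 and 0.20), both lipid transfer proteins, and the sphingomyelin synthase *Sgms1* (0.54 and 0.49). *Abcb4*, the transporter that exports phosphatidylcholine into bile, had a difference of 0.02 in WT livers (limma adjusted p = 0.90) and of 0.22 in KO livers (limma adjusted p = 0.17).

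**Figure D4:**
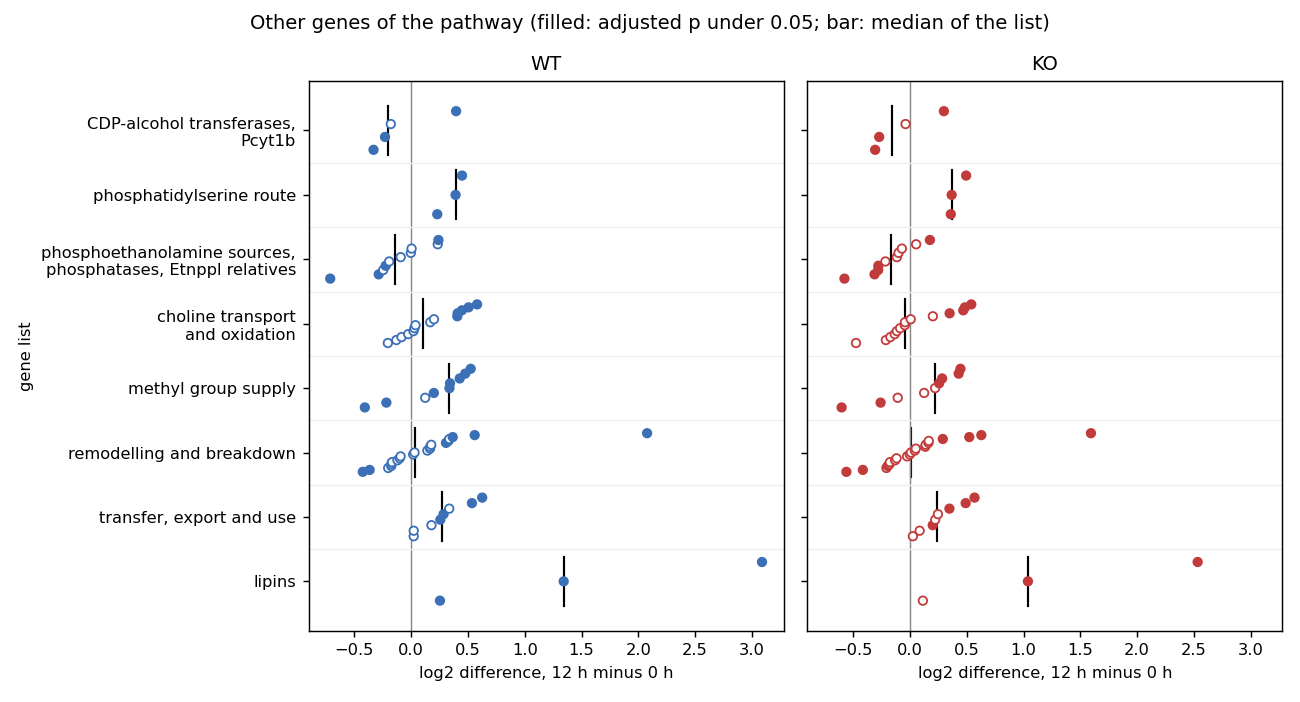
Log2 difference between 12 h and 0 h (horizontal axis) of 72 further pathway genes in WT (left) and KO livers (right), by gene list (vertical axis). Each circle is 1 gene, filled where the limma adjusted p is under 0.05, and the bars are list medians, from -0.20 to 1.34 in WT livers. The far points are *Lpin1* and *Lpin2* among the lipins and *Gpcpd1* in remodelling and breakdown.

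Among markers of Kupffer cells, 4 of 6 were lower at 12 h in WT and 2 of 6 in KO livers, where 14.3% and 9.69% of all probe sets were. Their mean level ranged from 9.31 to 9.68 at 0 h and from 8.80 to 9.24 at 12 h in WT livers, and from 9.16 to 9.65 and from 8.94 to 9.33 in KO livers. Of the 9 hepatocyte markers 2 were higher and 2 lower at 12 h in WT livers, and 0 higher and 2 lower in KO livers. Sinusoidal endothelium had 2 of 6 markers higher in WT and 1 of 6 in KO livers, stellate cells 2 higher and 1 lower of 6 in WT and 1 lower in KO livers, and cholangiocytes 1 of 5 lower in each genotype. The part of these markers in the time differences was not tested.

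For genotype limma called 0 of the 72 genes over both times, with 11 of 72 at an unadjusted p under 0.05, as had 2537 of 25689 probe sets and 1660 of the 12844 bright ones. Their median log2 difference was -0.05, against 0.0015 over all probe sets and -0.01 over bright ones. The difference was negative for 49 of 72 genes and the median for 7 of 8 lists. The share of all or of bright probe sets with a negative difference was not counted, so nothing is read from these counts. With each array centred on its median, the median over all probe sets was itself -0.03.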

How the data were processed

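Liver RNA of 20 mice was measured on 1 array each. The authors deposited RMA-normalized log2 values per probe set. The submitters' processing notes name RMA without a version, and no genome build is named in the sources used here. RMA corrects background and normalizes across arrays, so how far a signal rose above background could not be read from these values. Of 35557 probe sets, 9868 without any value were left out and 25689 were tested, without a filter on brightness. Gene names came from the platform annotation (20777 probe sets with 1 gene, 232 with several, 4680 with none) and were checked by gene identifier against RefSeq of GRCm38.p6, which changed 0 symbols. Promoter windows came from RefSeq of the same build, which held 7 of the 8 genes, all but *Pcyt2*.

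Labels gave each array's genotype, time and mouse number but no litter. A model of 4 group means was fitted to all 20 arrays (lmFit and eBayes, limma 3.58.1, R 4.3.3), and differences were called at a Benjamini-Hochberg adjusted p under 0.05 over all 25689 probe sets. Confidence intervals are at 95%. The number of arrays limits the precision. The brightest probe set stood for a gene with several.

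The members and gene lists were chosen with earlier results of these data known. The text names the members, up to 4 genes per list and direction that passed for time in WT livers, and the probe sets most like each member. *Phykpl*, *Agxt2*, *Bhmt*, *Abcb4* and *Pcyt1b* were named after their values were seen. Alternatives were quantile normalization, median centring, only bright probe sets, a trend with a robust prior, batch as a block, only the arrays compared and leaving out each array. A run without WT mice 80 and 170 was added after seeing the data.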

Additional observations from a re-analysis of the deposited data

Results flagged for a closer look

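In 2 of 24 groups of 5 mice 1 mouse stood far from the other 4, where chance flags about 1 in 20 groups. *Etnppl* in KO mouse 110 at 12 h was at 10.50 on the log2 scale, against 11.06 to 11.15 in the other KO mice. *Pemt* in KO mouse 55 at 12 h was at 12.67, against 12.77 to 12.80.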

How the results depend on the processing

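The counts of members called for time were 4 to 5 of 6 in WT and 4 of 6 in KO livers under the other settings, and 4 to 5 in both when 1 array was left out. For genotype over both times the count went from 0 to 1 of 6 with batch as a fixed block, which added *Etnppl*. As the group was selected on this difference, that call is no test of it, and the cause of the change was not tested. For the other genotype comparisons it stayed at 0 in each setting run. The count of the 72 further genes called for time in WT livers was 29 (without WT mice 80 and 170) to 41 under the other settings and 36 to 40 leaving out 1 array. The *Etnppl* difference between genotypes over both times ranged from -0.61 to -0.50 leaving out 1 array, and at 12 h it was -0.47 without KO mouse 110. The *Etnppl* time difference in WT livers passed in 3 of 7 other settings (median centring, bright probe sets only, WT arrays only) and without KO mouse 1 or 110. Small differences that missed the threshold changed sign, and the cause was not tested. The time difference of *Etnk1* in WT livers was 0.069 with median centring and -0.0827 to 0.0146 leaving out 1 array. The difference between the times' genotype effects ranged leaving out 1 array from -0.1744 to 0.0746 for *Etnppl*, -0.0378 to 0.0307 for *Pcyt2* and -0.0246 to 0.0711 for *Pemt*. For *Pcyt2* it was 0.027 with quantile normalization and 0.0017 without WT mice 80 and 170 and for *Pemt* -0.012 with median centring and -0.036 with batch as a fixed block. No paired analysis was possible because no mouse number occurs in more than 1 group. Genotypes were instead compared within batches and with batch as a block.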
